A study of Mus musculus with 7 samples.

Results

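Small nucleolar RNA (snoRNA) host genes make a spliced RNA whose introns hold snoRNAs. The set described here is Gas5 and Snhg1, Snhg3, Snhg5, Snhg6, Snhg7, Snhg8 and Snhg12, 8 genes chosen by name and matched by symbol in each of the 7 count tables, out of 32531 symbols. When such a host is spliced, the snoRNA is trimmed out of the intron and goes to the nucleolus, where it guides chemical modification of ribosomal RNA. The joined exons leave as a long noncoding RNA with no conserved protein, which can reach the cytoplasm, meet ribosomes at short reading frames and be destroyed by nonsense-mediated decay. Gas5 is the best known of these RNAs, first found as a transcript that builds up in cells that stop growing, and it belongs to the TOP class, whose RNAs start with a run of pyrimidines and whose translation follows growth signals.

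Tissue next to the ventricles was dissected from adult mouse brains of the line ES2575, which carries Dcdc2a-EGFP/Rpl10a, a ribosomal protein fused to a green fluorescent tag. The design text names ependymal cells, the ciliated cells that line the ventricles, as the target. IP libraries (numbers 1, 3 and 4) hold RNA purified with the tagged ribosomes through antibodies to EGFP, and Input libraries (numbers 1 to 4) are those the labels mark as input of the same line. All 7 libraries therefore share the transgene, only 1 line was used, and the tag marks whatever cells this Dcdc2a transgene is active in. The labels do not say whether numbers stand for separate animals, so p-values measure only the spread between these libraries. In such bulk libraries, fewer cells of a type and less RNA per cell cannot be told apart. In IP, a smaller share of an RNA bound to ribosomes cannot be told apart from these either.

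Assigned counts per library ranged from 37203427 to 52175180, and levels are given as counts-per-million (CPM) after TMM scaling. IP 1 stood apart from the other IP libraries. The summed level of 10 ependymal markers, all 10 of them higher in IP in the test below, was 235 CPM in IP 1, against 3156 in IP 3, 2661 in IP 4 and 28.6 to 43.7 in Input. Markers of mural cells and fibroblasts summed to 102 CPM in IP 1, 1357 in IP 3 and 666 in IP 4, and to 37.7 to 88.9 in Input, while Kcnj8 of that list was at 0 in at least 1 library. Markers of neurons summed to 8150 to 9514 CPM in IP and 10135 to 13281 in Input. Oligodendrocyte markers, 2 of 10 of them called lower (median log2 fold -0.75), summed to 2863 to 4760 CPM in IP and 4758 to 6596 in Input. The folds of the tested members and the counts over lists are therefore also given without IP 1, and the part of these other cell types in the results was not tested.

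The annotation shows how these short genes are built (GENCODE M21 on GRCm38, the assembly called mm10, unless RefSeq is named). Gas5 (ENSMUSG00000053332.13) spans chr1:161034422-161038539 on the plus strand and Snhg1 (ENSMUSG00000108414.1) chr19:8723475-8726443 on the plus strand. Snhg12 (ENSMUSG00000086290.9) lies at chr4:132308623-132311024 on the plus strand, and Snhg3 (ENSMUSG00000085241.7) on the same chromosome at chr4:132348014-132353686 on the minus strand. The other minus-strand genes are Snhg5 (ENSMUSG00000097195.9) at chr9:88521050-88522929, Snhg6 (ENSMUSG00000098234.7) at chr1:9941959-9944118, Snhg8 (ENSMUSG00000104960.1) at chr3:123507552-123508404 and Snhg7, by RefSeq, at chr2:26637176-26640244. Inside the 8 genes 29 loci of small RNAs were counted as snoRNA loci. Of these, 1 (Mir5117 in Gas5) carries a microRNA symbol and is not given as a snoRNA by RefSeq, and the others are. There are 9 in Gas5, 8 in Snhg1, 4 in Snhg12, 2 each in Snhg3, Snhg5 and Snhg7, and 1 each in Snhg6 and Snhg8. In the transcript drawn in the gene maps, 27 of the 29 fell between exons and 0 touched an exon. This depends on the transcript. In Snhg1, Snhg8 and Snhg12 the exons of all annotated transcripts together cover the whole gene, the snoRNAs included. The 2 in Snhg7 could not be placed because no exon model was used for it.

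**Figure D1:**
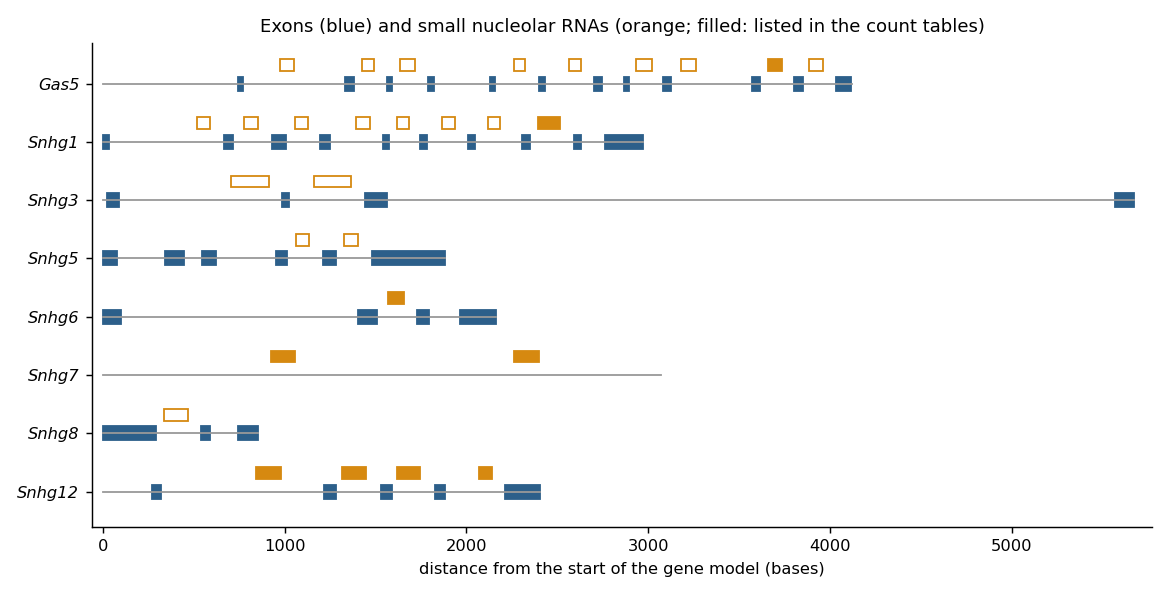
Gene maps of the 8 members, drawn to scale from the start of each gene in its direction of transcription (bases); blue boxes are exons of 1 annotated transcript (none drawn for Snhg7) and orange boxes are annotated snoRNAs, filled where the count tables list them. Gas5 holds 9 of these loci, with Mir5117 counted among them, and Snhg1 holds 8, all between exons, whereas Snhg6 and Snhg8 hold 1 each.

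The start sites are shown because a pyrimidine run at the start is what defines a TOP RNA, and Gas5 and Snhg12 (below Input in each IP library) can be set beside Snhg1 and Snhg5 (which overlapped with Input). Each line is the stretch from 40 bases before the RefSeq start (GRCm38.p6) to 25 bases from it on, 5′ to 3′ on the strand of the gene. Capitals mark TATAAA or TATATA between positions -40 and -16 and runs of at least 5 C or T letters that touch positions -10 to 10. The second of the Gas5 starts (chr1:161035126-161035190, plus) and those of Snhg12 (chr4:132308638-132308702, plus), Snhg1 (chr19:8723447-8723511, plus) and Snhg5 (chr9:88522873-88522937, minus) read:
Gas5: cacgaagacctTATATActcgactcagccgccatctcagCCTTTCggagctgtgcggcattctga
Snhg12: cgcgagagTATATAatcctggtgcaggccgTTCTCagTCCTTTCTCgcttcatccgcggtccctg
Snhg1: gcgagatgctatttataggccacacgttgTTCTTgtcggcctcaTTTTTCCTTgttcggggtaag
Snhg5: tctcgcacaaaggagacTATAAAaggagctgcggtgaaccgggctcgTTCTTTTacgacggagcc

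Of the 8 members, all but Snhg6, that is 7, had a start window (8 windows, with 2 for Gas5). A run of at least 5 C or T letters was present in at least 1 window of all 7 members (7 of 8 windows), against 44.9% of all 32851 start windows of the mouse table. The first of the Gas5 starts has neither such a run nor the motifs that follow. TATAAA or TATATA, 2 motifs that can overlap each other, was present on the strand of the gene in 5 of the 8 windows, against 2.73% of all windows. On either strand it was 6 of 8, against 3.18%. Among the 4 starts printed, Gas5 and Snhg12 share TATATA and Snhg5 has TATAAA, while Snhg1 has the reverse complement TTTATA. Both kinds of member, those with IP values below Input and those overlapping it, carried pyrimidine runs. A run covered the annotated start itself in Gas5 (second start) and Snhg12, and also in Snhg7 and Snhg8, whose IP values overlapped Input. No run covered it in Snhg1, Snhg3 and Snhg5, where the run after the start began at position 5, 3 and 8. These positions hold for the RefSeq starts only. The GENCODE genes of Gas5, Snhg1, Snhg5, Snhg8 and Snhg12 begin at other bases. A match is a description of letters and was not tied to any measured start in these libraries.

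Gas5 had the highest CPM of the members in every library. It was 95.5 CPM in IP 1, 37.3 in IP 3 and 25.9 in IP 4, against 140, 111, 173 and 161 in Input 1 to 4. Every IP value lay below every Input value, and IP 1 lay nearer to Input than the other IP libraries did. Averaged, this made 52.9 ± 37.3 CPM for the IP libraries (SD, n = 3) and 146 ± 27.0 for the Input libraries (SD, n = 4), so Input was 2.76 times IP. In edgeR's fit over all genes the log2 fold of IP over Input was -1.47 ± 0.41 (SE), with an edgeR adjusted p of 0.0659, and Gas5 did not pass the threshold of 0.05. Without IP 1 the log2 fold was -2.21 ± 0.24 with an edgeR adjusted p of 1.04e-05, and mean Input was 4.63 times the mean of IP 3 and IP 4. DESeq2 on all 7 libraries also called Gas5 lower, with a DESeq2 adjusted p of 0.00702. With the library number as a block the edgeR adjusted p was 0.115. Behind these values were 1331 to 4772 counts in IP and 4970 to 6550 in Input, so counting error was small beside the spread among IP libraries. Gas5 and Zbtb37 on the opposite strand share 428 bases of span and no exon base.

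Snhg12, on chromosome 4 with 4 snoRNAs between the exons of the transcript drawn, was the other member with IP values all below Input. It measured 12.9 CPM in IP 1, 5.24 in IP 3 and 5.28 in IP 4, and 13.2, 14.9, 15.0 and 16.6 in Input 1 to 4. IP 1 was just under the lowest Input, and IP 3 and IP 4 were well below it. The IP mean was 7.80 ± 4.39 CPM (SD, n = 3), against an Input mean of 14.9 ± 1.36 (SD, n = 4). The log2 fold was -0.93 ± 0.41 with an edgeR adjusted p of 0.209. Without IP 1, Snhg12 was called lower, with a log2 fold of -1.50 ± 0.39 and an edgeR adjusted p of 0.0122.

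Snhg7 gives rise to Snora43 and Snora17. Its level was 6.02 CPM in IP 1, 2.40 in IP 3 and 0.858 in IP 4, and 7.33, 7.19, 3.87 and 6.60 in Input 1 to 4. IP 1 fell within the range of Input, and IP 3 and IP 4 lay under it. The log2 fold was -1.01 ± 0.67 with an edgeR adjusted p of 0.417, and without IP 1 it was -1.94 with an edgeR adjusted p of 0.0565. Gas5, Snhg7 and Snhg12 thus shared an order in which IP 3 and IP 4 were below IP 1 and below all Inputs. This order was singled out after the values were seen, and 15.0% of all 17375 tested genes had it.

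Snhg6, the host of Snord87, had 3.02 CPM in IP 1, 4.47 in IP 3 and 0.546 in IP 4, against 4.73, 3.60, 12.3 and 6.65 in Input 1 to 4. The groups overlapped, with IP 3 above Input 2, and Input 3 was the highest library. The log2 fold was -1.35 ± 0.74 with an edgeR adjusted p of 0.321. Mcmdc2, a gene on the opposite strand, shares 127 exon bases with Snhg6. Whether the counting used strand is not given in the sources used here, so reads in the shared bases cannot be told apart. Mcmdc2 itself ran from 0.0390 CPM (IP 4) to 5.73 (Input 3), with its lowest and highest value in the same libraries as Snhg6.

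The remaining members showed no separation of IP from Input. Snhg1, the host of Snord22 and 7 other snoRNAs, had 11.2 CPM in IP 1, 23.5 in IP 3 and 13.9 in IP 4, against 17.0, 20.7, 25.6 and 19.0 in Input 1 to 4. Its log2 fold was -0.34 ± 0.33 with an edgeR adjusted p of 0.606, and here IP 1 was the lowest library, not the one nearest to Input. Snhg5, the host of Snord50a and Snord50b, had 8.10, 7.66 and 13.9 CPM in IP and 9.98, 6.30, 14.8 and 10.3 in Input. The ranges lay almost on top of each other, with a log2 fold of -0.07 ± 0.41 and an edgeR adjusted p of 0.946. Snhg3, the host of Snora73a and Snora73b, had its IP values on both sides of Input, at 10.9 CPM in IP 1, 5.75 in IP 3 and 2.16 in IP 4, around the Input values of 5.54, 5.83, 9.52 and 8.59. The log2 fold was -0.23 ± 0.56 with an edgeR adjusted p of 0.858. The direction of Snhg3 and of Snhg5 turned when single libraries were left out, with log2 folds up to 0.18 and 0.15. Without IP 1 the log2 folds were -1.44 for Snhg6, -0.14 for Snhg1, 0.06 for Snhg5 and -0.90 for Snhg3, with edgeR adjusted p-values of 0.219, 0.810, 0.951 and 0.285. Snhg3 shares 135 exon bases with Rcc1 on its own strand and 705 with Gm17300 on the opposite strand, so its counts are uncertain.

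Snhg8, the host of Snora24, was close to the limit of counting. It had 33, 7 and 5 counts in IP 1, IP 3 and IP 4, against 2, 7, 0 and 4 in Input 1 to 4. IP 1 was the highest library, at 0.660 CPM, and Input 3 had 0 counts, which allows a level of up to 0.0819 CPM (3 counts, counting error only). It did not pass the filter on low counts and was not tested in the fit given here. With no filter on low counts the log2 fold was 1.95 ± 1.77 with an edgeR adjusted p of 0.556.

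**Figure D2:**
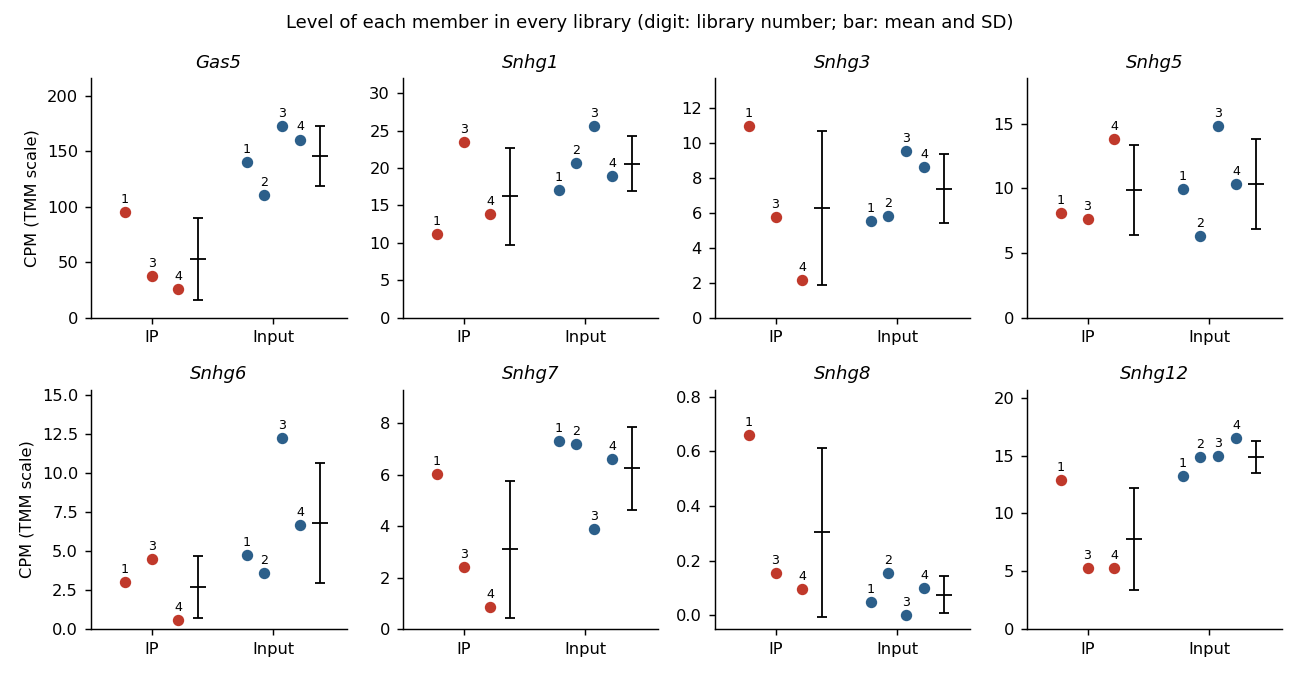
Level of each of the 8 members (CPM, linear axis from 0 except for Snhg8, own scale per panel) in the 3 IP and 4 Input libraries, numbered; bars are group means ± SD. All IP points of Gas5 and of Snhg12 lie below all Input points, and the other members overlap.

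Over the set, 0 of 7 tested members passed the threshold in either direction. Among all 17375 tested genes, 3.64% were called higher in IP and 2.16% lower (633 and 376 genes). With the library number as a block these were 0.553% and 0.19% (96 and 33 genes), again with 0 members. At an unadjusted p under 0.05 in edgeR there were 2 of 7 members, Gas5 and Snhg12, against 3952 of the 17375 tested genes. The log2 folds of the 7 tested members ran from -1.47 to -0.07, all below 0, with a median of -0.93. Of the 17375 tested genes 8151 were below 0, and the median of all tested genes was 0.06. Every IP value was below every Input value in 2 of 7 members and above it in 0, against 10.4% and 9.55% of all tested genes. Without IP 1, edgeR called 2 of 7 members lower and 0 higher, against 9.55% of genes called lower and 12.5% called higher, and the median of the members was -1.44. DESeq2 called 1 member lower, Gas5, and 0 higher, against 5.54% of genes called lower and 8.03% called higher.

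**Figure D3:**
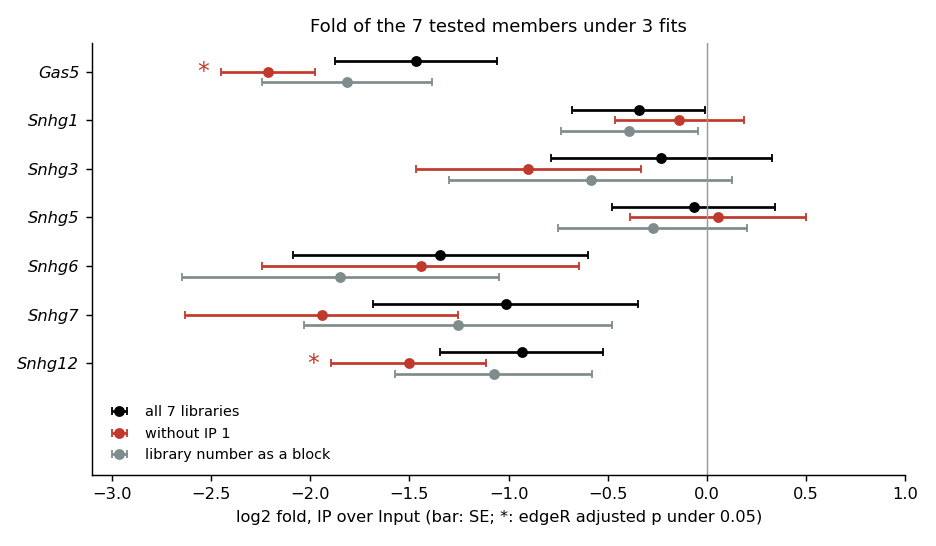
Log2 fold of IP over Input for the 7 tested members from edgeR with all 7 libraries, without IP 1, and with the library number as a block; bars are SE and asterisks mark an edgeR adjusted p under 0.05. Asterisks appear only for Gas5 and Snhg12 without IP 1.

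**Figure D4:**
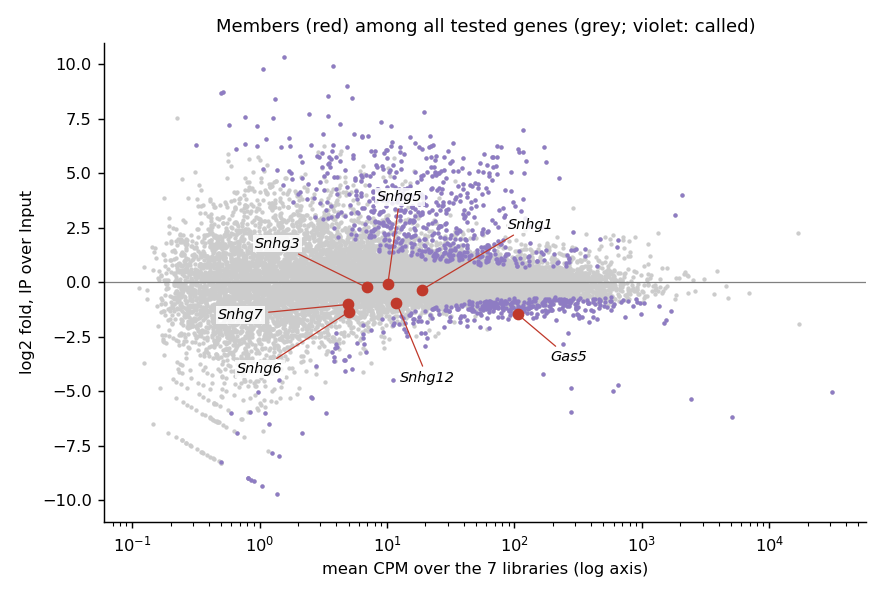
Log2 fold of IP over Input against mean CPM over the 7 libraries (log axis) for all 17375 tested genes, with genes at an edgeR adjusted p under 0.05 in violet and the 7 tested members in red. The members lie at or below 0, and Gas5 has the highest mean CPM of them.

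The labels place each IP on the same sequencing lane as the Input of its number, so ratios can also be read within a lane (log2 of IP over Input with a prior count of 2). For Gas5 these were -0.56 in lane pair 1, -2.21 in pair 3 and -2.63 in pair 4. For Snhg12 they were -0.04, -1.50 and -1.64, and for Snhg7 -0.28, -0.68 and -2.88. Pair 1 had the smallest difference in each of these 3 genes. Snhg6 had -0.64, -1.45 and -3.50, and Snhg1 had -0.60, -0.12 and -0.45. Snhg3 changed sign between lanes, with 0.98 in pair 1, -0.72 in pair 3 and -1.97 in pair 4, as did Snhg5 with -0.30, -0.95 and 0.43. IP was lower in all 3 pairs in 5 of 7 members, against 20.6% of all tested genes. Input 2 has no partner among these libraries and enters no pair.

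Compared per length, the order of the members in Input began with Gas5. Dividing CPM by the median length of the spliced transcripts in kilobases gave 291 ± 53.8 CPM per kilobase for Gas5, followed by 37.4 ± 6.66 for Snhg1 (SD, n = 4). Snhg3 with 16.9 ± 4.55, Snhg12 with 16.3 ± 1.49, Snhg5 with 13.3 ± 4.47 and Snhg6 with 12.2 ± 6.87 came next and did not differ beyond their spread. Snhg8 was last with 0.156 ± 0.137 CPM per kilobase, and Snhg7 has no length in the annotation used. The order depends on the length. Over all annotated exons Gas5 had 38.9 CPM per kilobase and stayed at the top, but Snhg1, with 6.93, came between Snhg3 with 7.48 and Snhg12 with 6.20. In IP the per-kilobase level of Gas5 over the median spliced transcript was 105 ± 74.3 and that of Snhg1 29.5 ± 11.8 (SD, n = 3). Over all annotated exons it was 14.1 ± 9.92 in IP, and the lowest IP library of Gas5, at 6.90, lay within the range of Snhg5 (4.43 to 8.01).

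Gas5 made up most of the summed CPM of the 8 members in Input (not scaled by length), 65.4% to 70.8%, and 64.4% in IP 1, but 43.1% in IP 3 and 41.4% in IP 4. The sum itself was 148 CPM in IP 1, 86.5 in IP 3 and 62.6 in IP 4, against 170 to 254 in Input. The 7 Snhg genes alone had a sum of 46.2 ± 8.47 CPM for IP (SD, n = 3) against 66.3 ± 10.8 for Input (SD, n = 4). To ask whether Gas5 differed from other hosts in its own libraries, the log2 ratio of Gas5 to each of the 6 other tested members was compared between groups with a two-sided exact permutation test. Over Snhg3 the log2 ratio differed by -1.20 between IP and Input, with every IP below every Input (exact p = 0.0286, the smallest this design allows, adjusted p = 0.114 over 6 comparisons). Over Snhg5 the difference was -1.62 and over Snhg12 -0.61, each with an exact permutation p of 0.0571 and an adjusted p of 0.114. Every IP was below every Input for the ratio over Snhg12 too. Over Snhg1 it was -1.27 (exact p = 0.171), over Snhg7 -0.31 (exact p = 0.514) and over Snhg6 -0.06 (exact p = 0.943). None of the 6 passed after adjustment. With so few libraries a single comparison at the smallest p could not have passed, so this does not show that the ratios were alike. These ratios were set up after the values of the members had been seen.

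The snoRNAs inside the members were mostly at the limit of counting. Of the 29 loci, 9 had a symbol in the tables, 7 of those had a count, and 3 could be tested. Snord47 of Gas5 belongs to the C/D class and Snora43 of Snhg7 to the H/ACA class. Both are shown as examples of what the hosts carry, from the GENCODE transcripts at chr1:161038082-161038158 (plus) and chr2:26637848-26637974 (minus). In Snord47 the capitals mark box C (TGATGA) and box D (CTGA), and in Snora43 the ACA box:
Snord47: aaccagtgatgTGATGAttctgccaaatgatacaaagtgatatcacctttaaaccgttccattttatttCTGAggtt
Snora43: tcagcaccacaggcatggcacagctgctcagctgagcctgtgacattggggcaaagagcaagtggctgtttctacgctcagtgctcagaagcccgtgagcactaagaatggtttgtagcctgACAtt

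Snord47 had 30, 2 and 0 counts in IP 1, IP 3 and IP 4, against 23, 1, 8 and 11 in Input 1 to 4, with a log2 fold of -0.32 ± 1.66 and an edgeR adjusted p of 0.938. Snora43 had 12, 0 and 0 counts in IP and 60, 14, 10 and 8 in Input, with a log2 fold of -2.77 ± 1.78 and an edgeR adjusted p of 0.406. Snora61 of Snhg12 had 16, 1 and 0 counts in IP and 15, 7, 2 and 19 in Input, with a log2 fold of -1.17 ± 1.63 and an edgeR adjusted p of 0.735. In each, nearly all IP counts came from IP 1. IP 3 and IP 4 held 0 to 2 counts of these 3 snoRNAs, so a fold without IP 1 rests on almost no IP counts and is not interpreted. The untested snoRNAs also had their highest IP count in IP 1. Snora44 of Snhg12 had 46, 0 and 6 counts in IP and 30, 0, 6 and 4 in Input. Snora16a of Snhg12 had 5, 0 and 0 counts in IP and 0, 9, 3 and 5 in Input. Snora17 of Snhg7 had 34, 0 and 1 counts in IP against 9, 0, 1 and 2 in Input, and Snord87 of Snhg6 had 35, 0 and 0 against 0, 0, 1 and 0. Snord22 of Snhg1 and Snord99 of Snhg12 were at 0 in all 7 libraries. All 7 snoRNAs with a count had under 10 counts in both IP 3 and IP 4. Summed over the 111 snoRNA symbols of the tables, Scarna9 included, the level was 82.9 CPM in IP 1, 6.78 in IP 3 and 2.89 in IP 4, and 17.7 to 25.1 in Input. Scarna9 alone held a large part of the sum in IP 1. Without it 2846 of 4140 counts were left in IP 1, 304 of 308 in IP 3 and 144 of 148 in IP 4, and 730 to 1012 counts in Input. Whether the library preparation captured RNAs of this length is not given in the sources used here.

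Other noncoding snoRNA hosts gave a reference for these values (14 of 15 listed genes found, 13 tested). edgeR called 2 lower and 0 higher, with a median log2 fold of -0.41. Snhg14, the long host in the imprinted Prader-Willi region, had 31.1, 59.4 and 45.1 CPM in IP 1, IP 3 and IP 4 against 99.3 to 161 in Input, with a log2 fold of -1.50 ± 0.28 and an edgeR adjusted p of 0.0188. It was as low in IP 1 as in the other IP libraries, and stayed under the threshold with the block (edgeR adjusted p 0.0463). Zfas1, listed in the tables as 1500012F01Rik, is the host of the Snord12 family. It had 9.51, 8.54 and 4.41 CPM in IP and 19.5 to 23.4 in Input, a log2 fold of -1.48 ± 0.35 and an edgeR adjusted p of 0.0386, which the block took to 0.159. Leaving out IP 4 or any single Input library ended both of these calls. Without IP 1 the edgeR adjusted p was 0.000951 for Snhg14 and 0.00505 for Zfas1. In that fit 7 of the 13 were called lower and 1 higher, Snhg18 (1.91, edgeR adjusted p 0.0115), and the median was -1.31. The same fit called 9.55% of all tested genes lower and 12.5% higher. Snhg18 had 2.66 CPM in IP 1, 27.0 in IP 3, 14.0 in IP 4 and 2.67 to 8.10 in Input. Snhg11 had 5746 CPM in IP 1, 165 in IP 3, 125 in IP 4 and 1375 to 2012 in Input, so IP 1 lay above all Inputs where IP 3 and IP 4 lay far below.

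Among long noncoding RNAs known to stay in the nucleus, some differed widely between the IP libraries and some did not. Malat1, an abundant RNA of nuclear speckles, had 17599 CPM in IP 1, 1256 in IP 3 and 1106 in IP 4, against 17562 to 31271 in Input. IP 1 was thus at the level of Input 1. Neat1, the scaffold of paraspeckles, had 16.9, 1.41 and 1.31 CPM in IP and 23.0 to 53.5 in Input. Meg3 had 13666, 230 and 310 CPM in IP and 2645 to 3645 in Input, and so was highest in IP 1. Kcnq1ot1 was alike in the IP libraries (6.96, 4.45 and 5.01 CPM), as was Rmst (9.45 to 13.7), and Peg13 was lower in IP 1 than in IP 3 and IP 4 (134, 319 and 337). Of the 10 such RNAs, 1 was called lower, Kcnq1ot1, an antisense RNA of an imprinted region (log2 fold -2.54 ± 0.34, edgeR adjusted p 0.0105, and 0.0443 with the block). Leaving out IP 4, Input 3 or Input 4 ended that call, and with the block Xist was called lower too (edgeR adjusted p 0.0443). Without the block the edgeR adjusted p of Xist was 0.253, and its groups overlapped. Xist had 12.7 to 16.9 CPM in IP. Input 2, which enters no lane pair, lay below all of these, and the other Inputs had 47.2 to 68.9 CPM. The source of this spread among Inputs was not tested. Without the block, Rmst came next after Kcnq1ot1, at -1.12 with an edgeR adjusted p of 0.0597. The list median was -1.17 with all libraries and -2.35 without IP 1, where 7 of 10 were called lower, against 9.55% of all tested genes. The part of the nuclear RNA content of IP 1 in the values of the hosts was not tested.

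The RNAs of protein-coding genes of the pathway were also counted. Among 37 protein-coding snoRNA hosts, many of them ribosomal protein genes, 1 was called lower and 0 higher, with a median log2 fold of -0.22. This was Rpl4 (-0.79 ± 0.19, edgeR adjusted p 0.0391), whose edgeR adjusted p under the block was 0.182. Without IP 1, 4 of the 37 were called lower and 0 higher, with a median of -0.37. That fit called 9.55% of all tested genes lower and 12.5% higher. Of 79 cytosolic ribosomal protein genes, which are TOP RNAs like Gas5, 3 were called lower and 0 higher, with a median of -0.55. These were Rps15a (-1.29 ± 0.25, edgeR adjusted p 0.0219), Rplp1 (-1.17 ± 0.28, edgeR adjusted p 0.0389) and Rpl4, and 0 of the 79 were called with the block. Without IP 1, 8 were called lower and 1 higher, with a median of -0.50. Near-identical pseudogene copies make the counts of ribosomal protein genes uncertain.

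Among 19 genes for proteins that form or assemble snoRNA particles, 1 was called higher, Ruvbl2, an ATPase of the assembly machinery. It had 25.4, 64.8 and 106 CPM in IP and 13.7 to 20.7 in Input, with a log2 fold of 1.99 ± 0.41 and an edgeR adjusted p of 0.0256, which the block took to 0.117. Naf1, an assembly factor of H/ACA particles, had a log2 fold of 1.68 with an edgeR adjusted p of 0.131. Without IP 1 these 2 genes were called higher, Ruvbl2 with 2.37 (edgeR adjusted p 1.24e-05) and Naf1 with 2.17 (edgeR adjusted p 0.0012). The median of the list was 0.09, and 0.10 without IP 1. Among 16 factors of nonsense-mediated decay, 0 were called and the median was 0.56, but 0.18 with the block, 0.29 in limma voom and 0.29 without IP 1. The RNA helicase gene Dhx34 had 1.55 ± 0.50 (edgeR adjusted p 0.0993), and Upf3b, part of the link between exon junctions and decay, had 0.84 (edgeR adjusted p 0.148). Without IP 1, 2 of the 16 were called higher and 1 lower, against 12.5% and 9.55% of all tested genes.

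**Figure D5:**
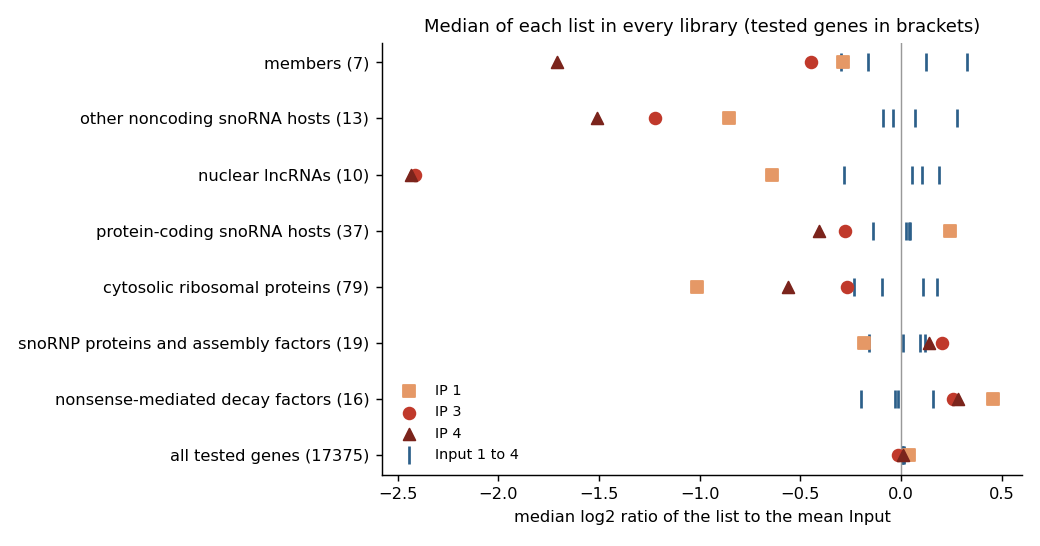
Median over each gene list of the log2 CPM of a library minus the mean log2 CPM of the 4 Input libraries, for the 3 IP and 4 Input libraries. The members lie at -0.29 in IP 1, -0.45 in IP 3 and -1.71 in IP 4, and at -0.30 to 0.33 in Input. The nuclear long noncoding RNAs lie at -0.64, -2.41 and -2.43, and at -0.28 to 0.19 in Input.

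By library, the members had a median against mean Input of -0.29 (IP 1), -0.45 (IP 3) and -1.71 (IP 4). For the members the single Input libraries had -0.30 to 0.33, so IP 1 lay within that range and IP 3 just below it. The other noncoding hosts had -0.86, -1.22 and -1.51 in IP and -0.09 to 0.28 in Input. The nuclear RNAs had -0.64, -2.41 and -2.43 in IP and -0.28 to 0.19 in Input. IP 1 was the closest to Input in these 3 lists. It was the farthest from Input for cytosolic ribosomal proteins, at -1.01 against -0.27 in IP 3 and -0.56 in IP 4, and for factors of nonsense-mediated decay, at 0.46 against 0.26 and 0.28. The medians of all tested genes lay between -0.02 and 0.04 in every library.

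Genes whose levels followed the members most closely were found by Pearson's r of log2 CPM over the 7 libraries, among 11193 genes with a mean of at least 5 CPM. For Gas5 these were Mapk8, a stress kinase (r = 0.995), Epm2aip1 (0.989) and Ftx, a noncoding gene of the X chromosome (0.986). For Snhg12 they were Malat1 (0.997), Mboat1 (0.991) and F8 (0.987), and Gas5 and Snhg12 themselves had r = 0.966. Over the Input libraries alone, Gas5 and Snhg12 had r = 0.301. For Snhg1 the closest was Rer1 (0.986), for Snhg3 Rfc5 (0.994), for Snhg5 Klk6 (0.973), for Snhg6 Ube2q2 (0.987) and for Snhg7 St3gal3 (0.984). Genes without a proper name were skipped. Each gene named is among the 3 highest for its member, over 7 points that include the group difference and the position of IP 1. These values are given as a description.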

How the data were processed

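The deposited files hold counts per gene symbol for each library, whole numbers made by the authors with STAR 2.0.0e, HTSeq and mm10, per the submitters' processing notes. The counting annotation, strand setting and kit were not stated (not given in the sources used here). Lines that name no gene (40.1% to 52.1% of reads per library) were left out. At this depth 3 counts correspond to 0.0585 to 0.0819 CPM. Genes were filtered with filterByExpr (minimum count 10, minimum total 15), scaled by TMM and tested with edgeR 4.0.16 in R 4.3.3 (robust quasi-likelihood test, group as the only term, Benjamini-Hochberg over 17375 genes, threshold 0.05). SE was the log2 fold over the root of its F statistic. In a test on simulated data the fit recovered few genes with an absolute log2 fold of 1 and most of those with 2. A member that was not called may therefore still differ. DESeq2 1.42.0, limma 3.58.1 voom, other scaling, no filter, a replicate block and each library left out were alternatives. The block rests on labels that put same-numbered libraries on 1 lane. Their deviations from group means correlated by 0.026 to 0.043. Members and gene lists were chosen with earlier results of these data known. Named genes were the members, snoRNAs inside them with a count, from each list the called genes (up to 6) and the 2 smallest p-values, and the 3 genes closest to each member. Other genes, such as Snhg11, Snhg18, Malat1, Neat1 and Meg3, were named after their values were seen. A gene that the rule names is not reported here.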

Additional observations from a re-analysis of the deposited data

How the results depend on the processing

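The count of genes called higher in IP was 633 in edgeR, 1396 in DESeq2, 62 in limma voom and 96 with the replicate block, and 4 to 2259 when 1 library was left out. For genes called lower it was 376, 962, 171, 33 and 16 to 1724. The highest counts came without IP 1. Members called lower numbered 0, but 1 in DESeq2 and 0 to 2 with 1 library left out. Gas5 was called by DESeq2 (-1.46, adjusted p 0.00702) and without IP 1, with a range of -2.21 to -1.14 over left-out libraries. It had -1.82 with the replicate block that pairs lanes, and was not called. Snhg12 ranged from -1.50 to -0.72 and was called only without IP 1. Directions turned in Snhg3 (-0.90 to 0.18, turned without IP 4), Snhg5 (-0.39 to 0.15, turned without IP 1, IP 3 or Input 3) and Snord47 (-3.48 to 0.26, turned without IP 3 or IP 4). The cause was not tested. The Snord47 value of -3.48 was the fold without IP 1, which rested on 2 counts in IP 3 and 0 in IP 4. Depth limits Snhg8 and the snoRNAs, where few counts lie behind each value, and the 3 IP libraries limit the rest.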

Other observations

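Among the Input libraries, Input 3 had the highest level of 5 of the 7 tested members (Gas5, Snhg1, Snhg3, Snhg5 and Snhg6) and the lowest of Snhg7, at 3.87 CPM against 6.60 to 7.33 in the others. No Input library was far enough from the rest to pass Dixon's criterion for 4 values, and Snhg7 came closest with a gap of 0.790 of the range. Snhg10 had 1.32 CPM in IP 1, 15.6 in IP 3 and 3.55 in IP 4 against 2.97 to 6.09 in Input, so a single IP library stood above all others.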
